A study of Homo sapiens with 24 samples.

Results

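The transcripts described here encode the proteins of the cytosolic ribosome, those of its large subunit (RPL), its small subunit (RPS), its stalk (RPLP) and RPSA. Members were chosen from a list of 60 Ensembl transcript IDs, and 48 of them were found in both deposited tables, which hold 11252 and 10767 transcripts. The other 12 were in neither table and are not analysed here. All 48 passed the filter on low values (a mean of at least 10 in RNA and in footprints) and were tested among 9342 and 8283 transcripts. No table used here pairs these transcript IDs with gene symbols (0 IDs matched), so that a member is given by its ID and the roles of single members are not described.

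The study compared translation in MDA-MB-231 cells, a human triple-negative breast cancer line. There were 4 groups of 3 replicates: parental cells (labelled poorly metastatic), LM2 cells (labelled highly metastatic to lungs), poorly metastatic cells with a control guide (sgCTRL), and poorly metastatic cells with a guide against HNRNPC (sgHNRNPC, labelled a knockdown). All 4 groups were grown in the same high-glucose medium with serum and antibiotics, and none carries a treatment in the labels. Ribosome profiling reads the short pieces of mRNA shielded by ribosomes during a nuclease digest (footprints), and RNA-seq of the same lysates gives the RNA level. The labels do not say whether a guide line is 1 clone, or whether replicates are separate cultures, so p-values measure the spread between these libraries, which may be technical.

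Cells need the ribosomal proteins in nearly equal amounts, and their mRNAs are among the most abundant in growing cells. Most of these mRNAs belong to the TOP class, which start with a C followed by an unbroken run of pyrimidines. The run lets the cell hold them back together or load them with ribosomes together, through mTOR signalling and the cap-binding protein LARP1, so that RNA and footprints of these transcripts can part from each other. The run is printed here at the annotated start of 6 ribosomal protein genes, from RefSeq on GRCh38.p14, with RPL4 added as a gene whose annotated start lacks it. In the RPL4 line a pyrimidine run led by a C stands shortly after the annotated start, in small letters. These sequences describe the gene family and could be tied to no single transcript ID of the tables. Each line gives 10 bases before and 20 bases from the start, 5′ to 3′ on the gene's strand, with the pyrimidine run in capitals.
RPLP0 at chr12:120201092-120201121 (minus strand): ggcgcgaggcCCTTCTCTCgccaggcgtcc
RPLP1 at chr15:69452808-69452837 (plus strand): ggcgcgagagCCCCTTTCCTCagctgccgc
RPLP2 at chr11:809957-809986 (plus strand): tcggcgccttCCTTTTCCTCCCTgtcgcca
RPSA at chr3:39406710-39406739 (plus strand): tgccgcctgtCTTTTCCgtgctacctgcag
RPS6 at chr9:19380217-19380246 (minus strand): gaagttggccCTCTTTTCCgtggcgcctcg
RPL24 at chr3:101686699-101686728 (minus strand): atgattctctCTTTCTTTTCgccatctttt
RPL4 at chr15:66504836-66504865 (minus strand): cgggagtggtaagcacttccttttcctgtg

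Of 77 ribosomal protein genes searched by symbol, 62 had a start in the table, and 46 of those (74.2%) had a C at a start within a pyrimidine run of at least 5 bases, on the gene's own strand and counted from the start. The same run stood at a start of 1404 of 27305 genes of the table (5.1%). Among the ribosomal protein starts with the run, its median length was 8 bases and the longest run found was 19. A match describes these letters at an annotated start and does not show which start these cells used. A run that begins just after the annotated start, as in RPL4, was not counted, so a gene without a match may still belong to the TOP class.

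The RNA values of each library were whole multiples of 1 step (100.0% of values within 0.05 of a whole number), which, if 1 step is 1 read, puts the RNA depth at 26810212 to 52584688 reads in the LM2 table and 23344230 to 28334050 in the knockdown table. Footprint values had no such step, so their depth in reads is unknown, and they sum to 1023095 to 1134509 and to 669584 to 753066 per library. The labelled cell type and the level of HNRNPC could not be checked without symbols. Both signals grow with the length of a transcript, and lengths could not be paired with the IDs, so that levels are compared between transcripts only as deposited, and the footprint per RNA also depends on how much of a transcript is coding.

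The 48 transcripts were among the most abundant in RNA in all 4 groups, and less far up in footprints. Their median RNA signal was 36387 in parental cells, 37653 in LM2 cells, 28303 in sgCTRL cells and 26371 in sgHNRNPC cells, against 1556, 1525, 1432 and 1318 for all transcripts tested. The median member thus lay at the 99.0 to 99.1 percentile of RNA level, and the lowest member at the 91.5 to 93.0 percentile. Their median footprint signal was 659, 514, 411 and 379 in the same order, against 62.7, 64.3, 48.1 and 47.1 for all transcripts tested. Together the 48 took 5.42% ± 0.0709 (SD, n = 3) of the summed RNA signal in parental cells, 5.71% ± 0.04 in LM2 cells, 5.66% ± 0.14 in sgCTRL cells and 6.13% ± 0.116 in sgHNRNPC cells. They took a smaller share of the summed footprint signal, at 2.8% ± 0.108, 2.39% ± 0.243, 2.61% ± 0.197 and 2.63% ± 0.26 (SD, n = 3 each). Fewer cells and less RNA per cell cannot be told apart in such bulk samples.

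**Figure D1:**
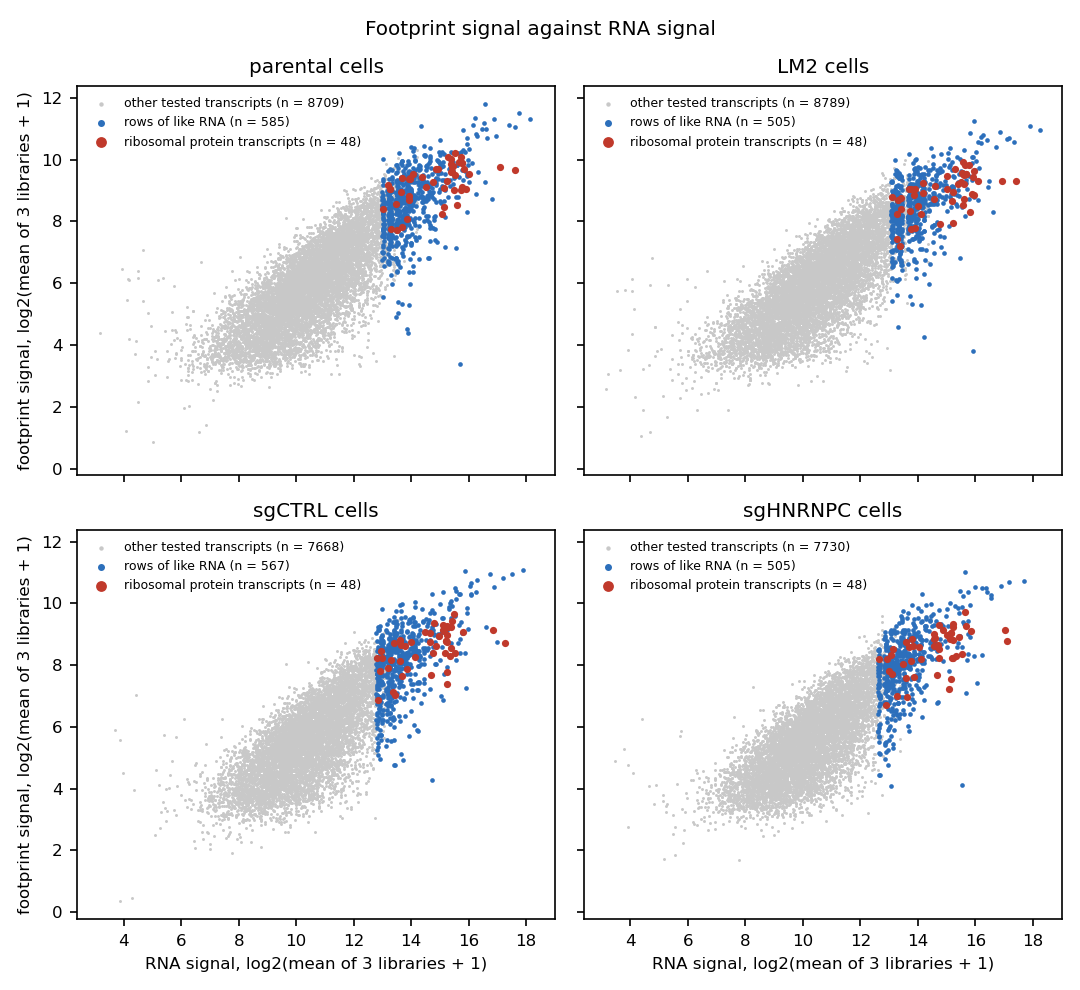
Mean footprint signal (vertical axis) against mean RNA signal (horizontal axis), both as log2(value + 1) of the mean of 3 libraries, in the 4 groups. The 48 ribosomal protein transcripts (red) lie at the right end of the RNA axis, among rows of like RNA (blue, the 50 transcripts nearest in RNA to each member), and their footprint levels spread less than those of the blue points.

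The members differed far more from each other in RNA than in footprints. The highest member exceeded the lowest 24.1-fold in RNA in parental cells, 19.7-fold in LM2 cells, and 21.9-fold in both sgCTRL and sgHNRNPC cells. In footprints the same ratio was 5.71, 6.71, 6.87 and 8.1. The SD of log2 RNA over the members was 1.03 to 1.06 and that of log2 footprints 0.64 to 0.68, whereas rows of like RNA, taken as the 50 other tested transcripts nearest in RNA to each member, had an SD of 0.85 to 0.88 in RNA and 1.05 to 1.12 in footprints. Across the 48 members, log2 footprints rose with log2 RNA with a slope of 0.33 to 0.35 (Pearson's r 0.53 to 0.58, across transcripts of the same libraries, which are not independent replicates). In rows of like RNA the slope was 0.57 to 0.71, and over all tested transcripts it was 0.66 to 0.69. A member with more RNA therefore carried more footprints, but by less per step of RNA than other transcripts did, as a description with no test. Pooled and each counted once, the like rows had a lower median RNA signal than the members, at 10937 to 14998.

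Footprint per RNA followed from these levels. Per 1000 units of RNA signal, the median member had 20.0 footprint units in parental cells (19.2, 19.9 and 21.6 in replicates 1, 2 and 3), 15.6 in LM2 cells (18.4, 14.7 and 14.0), 15.8 in sgCTRL cells (16.3, 16.7 and 14.2) and 15.3 in sgHNRNPC cells (12.7, 15.3 and 18.2). All tested transcripts had medians of 42.5, 43.6, 35.7 and 37.8, so the members were low in footprint per RNA against the whole table. Rows of like RNA, pooled and each counted once, were low as well, with medians of 25.1, 21.8, 22.0 and 22.8. As a pooled set they had less RNA than the members, with median RNA signals of 14177, 14998, 11188 and 10937. These medians are therefore not matched to the members in RNA. The 3 replicates of LM2 and of parental cells did not overlap in the members' median, while those of sgCTRL and sgHNRNPC cells did.

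Against rows of like RNA, taken member by member, the family as a whole stood on neither side by much. The gap is a member's log2 footprint per RNA minus the median of its 50 nearest rows in RNA. Its median over the 48 members was 0.15 in parental cells (0.09, 0.16 and 0.17 by replicate), -0.04 in LM2 cells (0.07, -0.06 and -0.07), -0.17 in sgCTRL cells (-0.19, -0.12 and -0.27) and -0.21 in sgHNRNPC cells (-0.32, -0.25 and -0.16). The number of members below their like rows was 19, 25, 30 and 30 of 48. The median of parental cells was above 0 in every replicate and that of both guide lines below 0 in every replicate, but the tables were normalized separately and the 2 pairs of groups are not set against each other. With 200 in place of 50 nearest rows the median gap was -0.07, -0.27, -0.29 and -0.42, so the sign in parental cells depends on how many rows count as alike. Only 51 to 62 other transcripts in a group had more RNA than the median member, and for the highest member the like rows lay up to 1.66 log2 below it in RNA. Over the 43 to 46 members whose like rows had a median RNA within 0.25 log2, the gap was 0.15, 0.01, -0.15 and -0.17 in the same order.

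**Figure D2:**
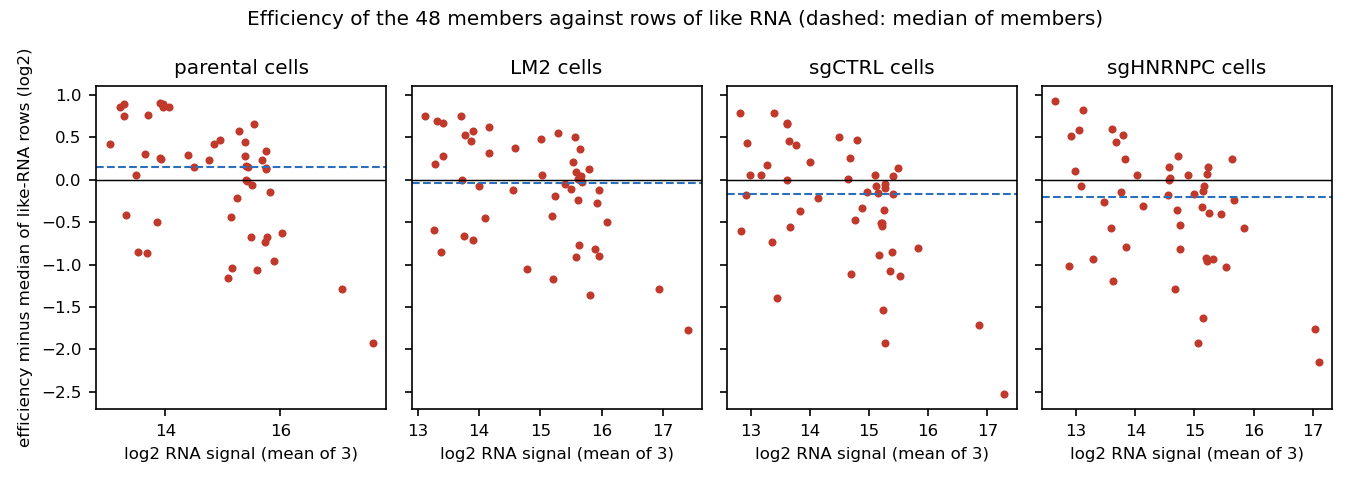
The gap in footprint per RNA between each of the 48 members and its 50 rows of like RNA (vertical axis, log2) against the member's RNA signal (horizontal axis, log2), 1 panel per group, with the median of members dashed. The gaps run from -2.53 to 0.93, and the 2 members highest in RNA lie among the lowest in each panel.

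The wide range within the family was larger than any shift of its median. Gaps ran from -1.92 to 0.9 in parental cells, -1.77 to 0.75 in LM2 cells, -2.53 to 0.79 in sgCTRL cells and -2.15 to 0.93 in sgHNRNPC cells. The 12 members lowest in RNA had median gaps of 0.28, 0.37, 0.06 and 0.02, the middle 24 had 0.24, -0.06, -0.19 and -0.16, and the 12 highest had -0.65, -0.39, -0.82 and -0.49. Since RNA is the denominator of the gap, and like rows of the highest members have less RNA than they do, this order is a description only.

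Which members were high and which low was nearly the same in all 4 groups. Spearman's rho of footprint per RNA across the 48 members was 0.99 between parental and LM2 cells, 0.97 between sgCTRL and sgHNRNPC cells and 0.96 to 0.98 across the tables, a description over transcripts that share length and sequence in all libraries. In all, 19 of 48 members lay below their like rows in all 4 groups, 15 lay above in all 4, and 14 lay on either side. Of the 12 members highest in parental cells, 11 were among the 12 highest in every group, and 10 of the 12 lowest were so too. No member moved by more than 7 ranks between parental and LM2 cells, or by more than 11 between sgCTRL and sgHNRNPC cells.

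ENST00000302907 had the highest footprint per RNA of the 48 in every group, at 61.5 per 1000 in parental cells, 49.6 in LM2 cells, 44.6 in sgCTRL cells and 45.8 in sgHNRNPC cells. Its RNA was among the lowest of the family, with 10019, 9440 and 9015 in parental cells and 8953, 8894 and 8751 in LM2 cells. Its footprint signal was 563, 609 and 579 in parental cells and 475, 428 and 415 in LM2 cells, so the groups did not overlap in either readout. The next in mean order over the groups were ENST00000525634 with 53.1, 40.8, 41.5 and 38.0 per 1000, ENST00000322203 with 51.2, 38.1, 39.4 and 40.8, and ENST00000312037 with 53.7, 39.6, 36.4 and 37.7. These 3 stood so close together that their order changed between groups.

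ENST00000228306 had the lowest footprint per RNA and the highest RNA of the family in every group. Its RNA signal was 202398, 204550 and 196768 in parental cells, 178313, 171595 and 172862 in LM2 cells, 171534, 153175 and 151346 in sgCTRL cells and 149801, 145988 and 126105 in sgHNRNPC cells. Its footprint signal was 826, 762 and 837 in parental cells, 724, 591 and 590 in LM2 cells, 423, 438 and 409 in sgCTRL cells and 386, 460 and 478 in sgHNRNPC cells. With footprints not far from those of many members that have a small part of its RNA, it carried 4.02, 3.64, 2.67 and 3.14 per 1000 in the 4 groups. ENST00000391857, the second highest in RNA (138545 ± 114 in parental cells, SD, n = 3), carried 6.24, 5.08, 4.71 and 4.12. ENST00000260379 carried 8.7, 6.45, 4.26 and 4.37, and ENST00000361436 carried 7.44, 5.54, 5.64 and 5.13. ENST00000225430, the third in mean RNA over the groups, carried 11.1, 9.21, 9.24 and 9.38. At the low end of RNA, ENST00000287038 had 8347 ± 362 RNA units and 339 ± 28.3 footprint units in parental cells, and ENST00000600659 had 10155 ± 536 and 213 ± 32.4 (SD, n = 3). Of these 2, the member with more RNA thus had fewer footprints. Ribosomal protein genes have many near-identical processed pseudogenes, and how reads shared with them were counted is not given in the sources used here, so single members' levels are uncertain.

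LM2 cells carried fewer footprints on ribosomal protein transcripts than parental cells, on RNA that moved both ways by little. Of the 48, 37 fell in footprints and 0 rose (limma, Benjamini-Hochberg adjusted p under 0.05 over 9342 transcripts; 14.5% of all tested transcripts fell and 9.25% rose). All 48 had a lower fitted footprint level in LM2 cells, and 0 were higher also at an unadjusted p under 0.05. The median change was -0.31 log2, so that the median member fell by 19.3%, with a range from -0.57 to -0.08. The median standard error of a single member was 0.09. The median change over all tested transcripts was 0.00. Members shifted together within a library, and their median level varied between replicates of a group with an SD of 0.153 log2, pooled over both groups. In 33 members the 3 LM2 libraries lay wholly below the 3 parental ones and in 0 wholly above them, as 20.4% and 16.9% of all tested transcripts did.

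In RNA, 18 members rose and 11 fell in LM2 cells (limma, adjusted p under 0.05; 22.9% of all tested transcripts rose and 30.8% fell), and 19 did not pass the test. The libraries of the 2 groups did not overlap in 20 members that were higher in LM2 cells (25.6% of all tested transcripts) and 12 that were lower (33.3%). The median RNA change was 0.05 log2 (range -0.38 to 0.26, median standard error of a single member 0.03), against -0.03 over all transcripts tested. Between replicates of a group the members' median RNA level varied with an SD of 0.059 log2, pooled over both groups. The split of calls moved with scaling, to 25 higher and 10 lower after TMM scaling (25.2% and 28.4% of all tested transcripts). Median centring also gave 25 and 10 (25.4% and 28.0%), and quantile normalization gave 30 and 8 (27.7% and 25.7%). That normalization left 14 members lower in footprints (11.0% of all tested transcripts), with a median change of -0.11. Without a variance trend 7 were called lower (7.21%).

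Abundant transcripts as a group also had fewer footprints in LM2 cells. The 600 other transcripts that were like a member in RNA, by the mean over both groups, had a median footprint change of -0.2, with 42.8% called lower. The fitted footprint change was negative in 83.0% of these 600, against all 48 members. The 808 like a member in footprints, by the same kind of mean, had -0.17, with 39.1% called lower. Their RNA had a median change of -0.07 and -0.08, below the members' 0.05.

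**Figure D3:**
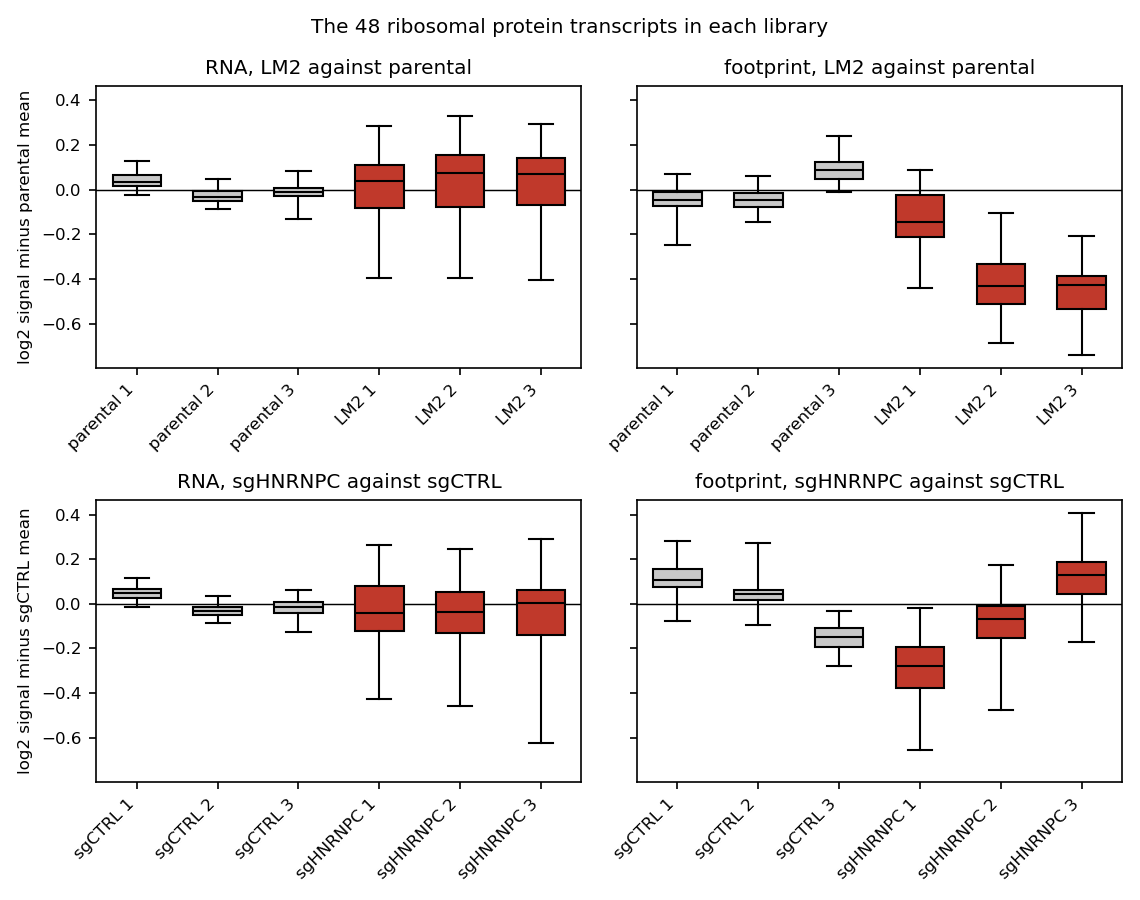
Change of the 48 members in each library against the mean of the control group (vertical axis, log2; box, quartiles and median; whiskers, full range), for RNA (left) and footprints (right), with control libraries in grey. In footprints the members' median was -0.15, -0.43 and -0.43 in the 3 LM2 libraries and -0.28, -0.07 and 0.13 in the 3 sgHNRNPC libraries, while RNA medians stayed within 0.07 of the control mean.

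Footprint per RNA was tested in 1 model over the 12 libraries of the table, as the difference between the footprint and the RNA change. It fell in 14 of 48 members and rose in 0 in LM2 cells (limma, adjusted p under 0.05), where 1.16% of all tested transcripts fell and 0.471% rose. At an unadjusted p under 0.05, 43 of 48 were lower and 0 higher. All 48 changes were negative, as were 68.3% of those in the 600 rows of like RNA. The median change was -0.39 log2, so that the median member fell by 23.6% (range -0.66 to -0.13, median standard error of a single member 0.11). Between replicates of a group the members' median footprint per RNA varied with an SD of 0.161 log2, pooled over both groups. The median change over all tested transcripts was 0.04 and that of the 600 rows of like RNA -0.08, with 7.17% of those rows called lower. Like rows pooled within a group had less RNA than the members, and the RNA level of these 600 was not compared with theirs. The 10th percentile of the change over all tested transcripts was -0.27, and 43 members lay below it. Of the 14 called lower, 11 were also called lower in footprints, and in RNA 10 were called higher, 4 were not called and 0 were called lower. The RNA change enters footprint per RNA with its sign reversed, so these shared calls are partly built into the readout. The SD of the change over the members was 0.10, near the standard error of a single member. It was 0.21 over rows of like RNA, 0.18 over rows like a member in footprints and 0.26 over all tested transcripts.

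The count of 14 moved with the libraries used. It was 44 without LM2 replicate 1 (2.86% of all tested transcripts called lower), and 0 without LM2 replicate 2 or 3 (0.171% and 0.225%). Without parental replicates 1, 2 and 3 it was 1, 2 and 0 (0.268%, 0.439% and 0.374%). The count was also 0 without a variance trend (35 at an unadjusted p under 0.05), where 0.128% of all tested transcripts were called lower. With libraries centred on their medians it was 28 (1.8%), and with array weights 42 (2.41%). The median change ranged from -0.50 to -0.32 over the libraries left out and was -0.21 after quantile normalization.

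**Figure D4:**
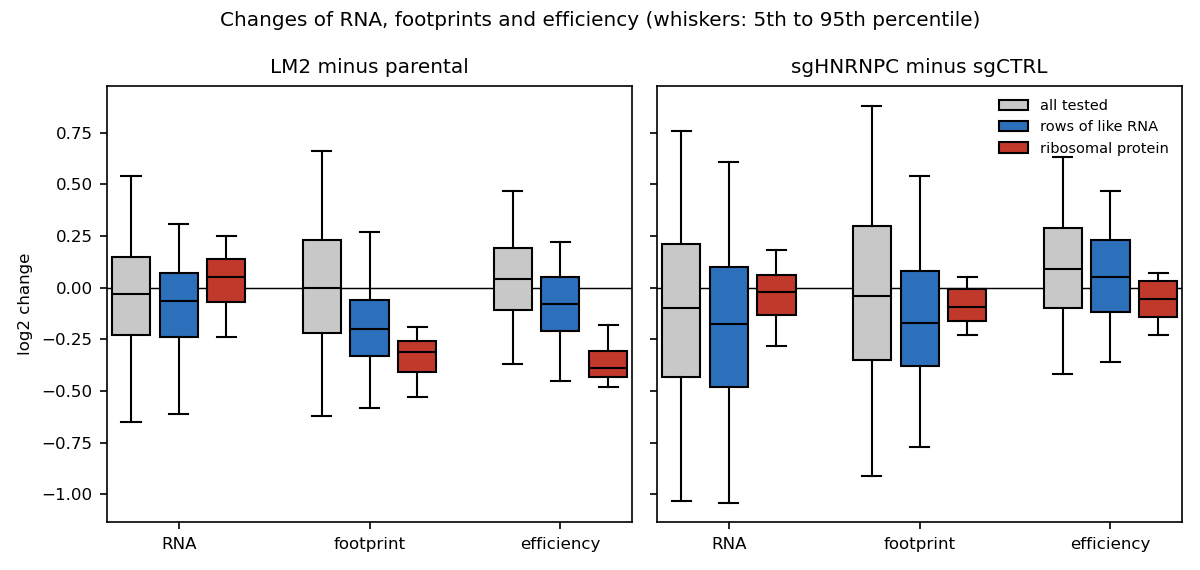
Change in RNA, footprints and footprint per RNA (efficiency) on the log2 scale for all tested transcripts (grey), rows of like RNA (blue) and the 48 members (red), LM2 minus parental on the left and sgHNRNPC minus sgCTRL on the right. Boxes give quartiles and median and whiskers the 5th to 95th percentile, and on the left the members' efficiency box (median -0.39) lies below that of like rows (median -0.08).

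The largest falls in footprint per RNA among the called members were in ENST00000274242 and ENST00000294189, whose RNA rose. For ENST00000274242 the RNA signal was 16709, 14804 and 14819 in parental cells and 16087, 18445 and 18236 in LM2 cells, and the footprint signal was 387, 374 and 479 against 345, 276 and 274. The RNA groups overlapped through LM2 replicate 1, and every LM2 footprint library lay below every parental one. RNA rose by 0.19 log2 (limma adjusted p = 0.00257) and footprints fell by 0.47 (adjusted p = 0.000371). Its footprint per RNA fell by 0.66 log2 ± 0.13 (SE; limma adjusted p = 0.0178). ENST00000294189 had RNA of 28268, 27724 and 27314 in parental cells and 33855, 32826 and 33255 in LM2 cells, with no overlap, a rise of 0.26 log2 ± 0.03 (SE; limma adjusted p = 1.08e-07). Its footprints were 594, 614 and 667 against 629, 500 and 474, where LM2 replicate 1 lay inside the parental range and the change missed the threshold (-0.24, limma adjusted p = 0.0513). Its footprint per RNA fell by 0.50 log2 ± 0.11 (SE; limma adjusted p = 0.0272). Both calls were lost when LM2 replicate 2 or 3, or parental replicate 2 or 3, was left out. That of ENST00000294189 was also lost without parental replicate 1. The limma adjusted p rose up to 0.179 over the libraries left out.

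Footprints fell most in ENST00000527673, from 493, 478 and 517 in parental cells to 365, 319 and 321 in LM2 cells, a change of -0.57 log2 ± 0.08 (SE; limma adjusted p = 2.76e-06), or -0.37 with quantile normalization. Its RNA fell as well, by 0.24 log2 (adjusted p = 3.86e-05). ENST00000234875 fell in both readouts too, with RNA of 38871, 35223 and 35874 against 27849, 28947 and 27687, and footprints of 342, 347 and 377 against 265, 231 and 226. Neither readout overlapped between the groups, and the changes were -0.38 log2 ± 0.03 in RNA (limma adjusted p = 7.23e-09) and -0.56 ± 0.09 in footprints (adjusted p = 7.46e-06). ENST00000196551 had RNA of 17515, 16759 and 17276 in parental cells and 13438, 13062 and 13604 in LM2 cells, a fall of 0.36 log2 (limma adjusted p = 5.51e-09). In the opposite direction, ENST00000216146 rose in RNA from 43361, 41181 and 43175 to 51419, 50983 and 50808, by 0.26 log2 ± 0.03 (SE; limma adjusted p = 8.59e-08), while its footprints of 1029, 995 and 1083 against 1007, 871 and 848 missed the threshold (-0.19, adjusted p = 0.0851). Members whose RNA fell and members whose RNA rose thus both had a negative fitted footprint change, and of the 37 called lower in footprints 11 were called higher in RNA, 11 lower and 15 in neither direction.

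The footprint libraries of a group differed from each other in the members together, by more than the RNA libraries did. In LM2 cells, replicate 1 was the highest of the 3 libraries in 48 of 48 members, with a median footprint signal of 596 against 467 and 465. In parental cells replicate 3 was highest in 41 members (693 against 645 and 632), in sgCTRL cells replicate 1 was highest in 39 and replicate 3 lowest in 47 (429, 405 and 370), and in sgHNRNPC cells replicate 3 was highest in 46 and replicate 1 lowest in 44 (307, 389 and 436). The members' median deviation from their group mean ran from -0.213 to 0.204 log2 in footprints and from -0.032 to 0.047 in RNA. Rows of like RNA deviated the same way in all 12 footprint libraries, from -0.095 to 0.095 and by less than the members except in sgHNRNPC replicate 2 (0.017 against 0.010), and all other tested transcripts by -0.019 to 0.026.

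The number of transcripts listed at exactly 0 in a footprint library moved with these shifts. It was 65, 25 and 26 in LM2 replicates 1, 2 and 3, 95, 73 and 150 in parental cells, 234, 139 and 70 in sgCTRL cells and 23, 38 and 95 in sgHNRNPC cells. In each of the 4 groups the library with the most zeros had the highest members, and it also had the largest summed footprint signal. Every LM2 library had fewer zeros than every parental one, and the part of the zeros in the fall of member footprints was not tested. Between libraries of near-equal zeros, LM2 replicate 1 (65) lay below parental replicate 2 (73) in 34 of 48 members, with a median difference of -0.08 log2. The same LM2 library lay below parental replicate 1 in 38 members (-0.11) and below parental replicate 3 in 46 (-0.22).

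**Figure D5:**
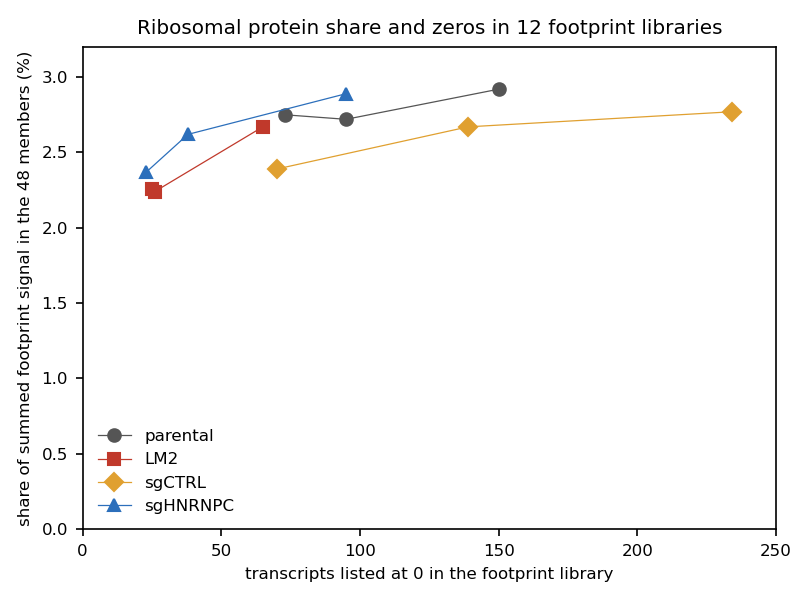
Share of the summed footprint signal in the 48 members (vertical axis, percent, from 0) against the number of transcripts listed at 0 (horizontal axis) in the 12 footprint libraries, with lines joining the 3 libraries of a group. In every group the library with the most zeros had the largest share, from 2.67% in LM2 cells to 2.92% in parental cells.

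HNRNPC encodes a nuclear RNA-binding protein that packages nascent transcripts and takes part in splicing and in the choice of 3′ ends. In cells labelled as its knockdown, the members' RNA moved both ways and few changes in footprints or in footprint per RNA passed the test. In RNA, 10 of 48 rose and 18 fell in sgHNRNPC cells (limma, adjusted p under 0.05), where 28.0% of all tested transcripts rose and 45.4% fell. The split turned with scaling, to 22 higher and 8 lower after TMM scaling (35.2% and 38.5% of all tested transcripts). It was 26 and 7 with libraries centred on their medians (37.5% and 36.2%) and 34 and 6 with quantile normalization (37.7% and 35.7%). The libraries of the 2 groups did not overlap in 8 members that were higher (29.0% of all tested transcripts) and 16 that were lower (46.0%). The median over all tested transcripts was -0.10 as deposited, and the members' median was -0.02 (range -0.50 to 0.26). Under those scalings, which bring the median of all tested transcripts to between -0.02 and 0.01, the members' median was 0.07 to 0.17. Their share of summed RNA was 6.24%, 6.15% and 6.01% in sgHNRNPC cells against 5.82%, 5.56% and 5.60% in sgCTRL cells, with no overlap.

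ENST00000311528 fell most in RNA, from 39321, 36106 and 37977 in sgCTRL cells to 28137, 27512 and 24525 in sgHNRNPC cells, by 0.50 log2 ± 0.05 (SE; limma adjusted p = 3.11e-10). Its footprints were 494, 405 and 407 against 315, 397 and 486, which overlap, and the change of -0.14 missed the threshold (adjusted p = 0.384). ENST00000316084 fell in RNA from 32760, 31338 and 31726 to 24356, 24427 and 24389, by 0.39 log2 ± 0.04 (SE; limma adjusted p = 5e-10), again with overlapping footprints of 552, 526 and 403 against 377, 453 and 552. ENST00000370321 rose in RNA from 43631, 41765 and 44535 to 52000, 51136 and 52215, by 0.26 log2 ± 0.04 (SE; limma adjusted p = 1.04e-06), with footprints of 623, 642 and 530 against 531, 582 and 721. ENST00000222247 rose from 40237, 36800 and 38091 to 44499, 45439 and 43525, by 0.21 log2 (limma adjusted p = 2.82e-05). In all 4 the RNA libraries of the 2 groups did not overlap, and the calls held under each alternative that was run. Their sizes moved with scaling: with quantile normalization the changes of ENST00000311528, ENST00000316084 and ENST00000222247 were -0.26, -0.13 and 0.34, and that of ENST00000222247 was 0.33 with libraries centred on their medians.

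In footprints 1 member fell and 0 rose in sgHNRNPC cells (limma, adjusted p under 0.05; 5 lower and 0 higher at an unadjusted p under 0.05), where 20.7% of all tested transcripts fell and 15.5% rose. The libraries did not overlap in 1 member that was lower and 0 that were higher (25.7% and 20.5% of all tested transcripts). That member was ENST00000361436, with 227, 212 and 212 in sgCTRL cells and 190, 176 and 193 in sgHNRNPC cells (-0.22, limma adjusted p = 0.0838). The median change was -0.09 log2 (range -0.33 to 0.16, median standard error 0.11), against -0.04 over all tested transcripts and -0.17 over 556 rows of like RNA, of which 36.5% were called lower. The median was 0.02 without sgHNRNPC replicate 1 and 0.03 after quantile normalization, so its sign is not fixed. Between replicates of a group the members' median footprint level varied with an SD of 0.197 log2, pooled over both groups. The member called was ENST00000348462, which like the non-overlapping one was named here after its values were seen, with 424, 390 and 305 in sgCTRL cells and 234, 298 and 365 in sgHNRNPC cells. These ranges overlap, and the change was -0.33 log2 ± 0.13 (SE; limma adjusted p = 0.0416). The count was 8 without sgHNRNPC replicate 3 (19.9% of all tested transcripts) and 3 without sgCTRL replicate 3 (17.4%). It was 0 without any 1 of the other libraries (17.1% to 17.8%).

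Footprint per RNA passed the test in 0 of 48 members in either direction in sgHNRNPC cells (limma; at an unadjusted p under 0.05 ENST00000527673 was lower, at -0.31 log2, and ENST00000311528 higher, at 0.36), where 3.72% of all tested transcripts rose and 1.74% fell. The median change was -0.05 log2 (range -0.31 to 0.36, median standard error 0.14), against 0.09 over all tested transcripts and 0.05 over rows of like RNA, and 45 of 48 members lay below the median of all tested transcripts. Without sgHNRNPC replicate 1 the median was 0.04 and without replicate 3 it was -0.15, so that 1 library sets its sign. Between replicates of a group the members' median footprint per RNA varied with an SD of 0.205 log2, pooled over both groups.

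The 2 comparisons share no library, though each was run on its own table. In RNA as deposited, 4 members were called lower in both, 3 higher in both and 11 in opposite directions. These counts were not set against those of all tested transcripts, and the RNA calls of both comparisons moved with scaling. In footprints all 48 members had a negative change in LM2 cells, so a count of shared signs only repeats the signs in sgHNRNPC cells. Those were 38 negative and 10 positive, around a median whose own sign is not fixed. The change in LM2 cells was the more negative in 47 of 48 members for footprints and in 46 for footprint per RNA. The difference between the 2 comparisons was not tested.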

How the data were processed

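RNA-seq and ribosome profiling were run in 4 groups of MDA-MB-231 cells, 3 replicates each (24 libraries). Each deposited table (1 per experiment) gives a normalized signal of reads for every transcript, per the file headers and the values. How the authors scaled the signal or handled reads shared by near-identical genes is not given in the sources used here. The tools were Bowtie2 2.3.5, SAMtools, UMI-tools and cutadapt 2.3 on hg38, per the submitters' processing notes. Parental columns carry only the name of the line.

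Values were transformed as log2(value + 1), which understates changes of low values. A transcript was tested where its mean reached 10 in the 6 RNA libraries of its table and 10 in the 6 footprint ones. The test was limma (version 3.58.1, R 4.3.3), with its moderated variance following a trend, two-sided, with Benjamini-Hochberg adjustment over all transcripts tested and a threshold of 0.05. For footprint per RNA, the model held all 12 libraries of a table and its interaction term (assay by group) was tested. The tables had separate normalizations, and each test stayed inside 1 of them. No count model was run: footprint values had no whole steps, and although RNA values were whole multiples of a step, the tables hold no RNA values under 4 steps, so that the step could not be checked at the low end. The fits were tested on simulated data.

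Rows of like RNA were the 50 tested non-members nearest to a member in mean log2 RNA of the group. Where they were pooled over the members, each was counted once, which within each group gave sets with less RNA than the members. For changes between groups, the mean was taken over the libraries of both groups, in RNA or in footprints. Members and lists were chosen with earlier results of these data known. Named members were the up to 2 largest RNA, footprint and efficiency changes in each direction among those past the threshold (with groups that do not overlap, for RNA and footprints), and the extremes of RNA and of footprint per RNA. Alternatives were other pseudocounts, filters, scalings, variance models, numbers of like rows, a replicate block, a lysate block and leaving out each replicate. Marker lists, pathway lists, other TOP transcripts and a gap per transcript length needed gene names or lengths and were not analysed here.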

Additional observations from a re-analysis of the deposited data

How the results depend on the processing

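Medians that turned sign were those of knockdown RNA under 3 scalings, of knockdown footprints with quantile normalization and without sgHNRNPC replicate 1, of knockdown footprint per RNA without that replicate, of the gap in parental cells with 200 rows, and of the gap in LM2 cells (-0.04), which was 0.01 with 20 rows, without LM2 replicate 3 and over members with a close RNA match. After quantile normalization LM2 RNA had 30 members higher (median 0.13), LM2 footprints 14 lower (median -0.11), LM2 footprint per RNA a median of -0.21, knockdown RNA 34 higher and 6 lower (median 0.17), knockdown footprints 3 higher and 0 lower, and knockdown footprint per RNA 2 lower. Without a variance trend LM2 RNA had 11 higher, LM2 footprints 7 lower, LM2 footprint per RNA 0 lower, knockdown RNA 6 higher and 11 lower, and knockdown footprints 0 lower. With median-centred libraries LM2 footprint per RNA had 28 lower, knockdown RNA 26 higher and 7 lower (median 0.10), knockdown footprints 0 lower and knockdown footprint per RNA 1 lower. TMM scaling gave knockdown RNA 22 higher and 8 lower (median 0.07) and knockdown footprint per RNA 1 lower. Array weights gave LM2 footprint per RNA 42 lower and knockdown footprints 2 lower. Knockdown footprints had 2 lower with a pseudocount of 5, 0 with no filter and 3 with a minimum mean of 50. The gap to like rows was 0.09 in parental cells with 20 rows, and with 200 rows -0.07 in parental, -0.27 in LM2, -0.29 in sgCTRL and -0.42 in sgHNRNPC cells. The gap over members with a close RNA match was an alternative chosen after seeing the data. The causes of these moves were not tested.

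Leaving out 1 library number at a time gave, for LM2 against parental, 17 to 22 members higher and 9 to 12 lower in RNA, 26 to 47 lower in footprints and 0 to 44 lower in footprint per RNA. For sgHNRNPC against sgCTRL it gave 8 to 12 higher and 14 to 19 lower in RNA, 0 to 1 higher and 0 to 8 lower in footprints, and 0 to 1 higher and 0 to 1 lower in footprint per RNA. The median changes ranged from -0.43 to -0.28 (LM2 footprints), -0.50 to -0.32 (LM2 footprint per RNA), -0.19 to 0.02 (knockdown footprints) and -0.15 to 0.04 (knockdown footprint per RNA).

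Groups share replicate numbers, but same-numbered libraries of 2 groups did not deviate together (correlations from -0.20 to 0.03), so the numbers were not taken as pairs. With the replicate number as a block, LM2 footprint per RNA had 0 members called lower (43 at an unadjusted p under 0.05), and 18 with the lysate as a block. The calls of footprint per RNA for ENST00000274242 and ENST00000294189 were lost in 6 and 7 of 17 alternatives, among them that block and the fit without a variance trend, and the named RNA and footprint calls held in all 16. The 3 libraries per group limit the precision, as does the unknown read depth of the footprints.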
